A study of Mus musculus with 20 samples.

Results

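Oligodendrocyte precursor genes are described here across both hemispheres of mouse brains after hypoxia-ischemia. They are the 10 genes Pdgfra, Cspg4, Olig1, Olig2, Sox10, Gpr17, Bcas1, Enpp6, Nkx2-2 and Neu4, out of 19937 genes measured on the arrays. Each gene was read from the probe set annotated to its symbol, or to a synonym, alone. Where a gene has several such probe sets the brightest over all 20 arrays is taken, but each of the 10 had 1. The brains came from 10 C57/Bl6 mice, adult per the labels. All were given lipopolysaccharide (LPS) and hypoxia-ischemia (HI), which injured the left hemisphere. The peptide IDR1018, a synthetic modulator of innate immunity, was given to 5 of the mice and not to the other 5. The groups, of 5 arrays each, were therefore injured left hemispheres after LPS + HI, uninjured right hemispheres after LPS + HI, left hemispheres after LPS + HI with IDR1018, and right hemispheres after LPS + HI with IDR1018. Doses, ages and collection times are not given in the sources used here. Because every animal was exposed to LPS and HI, the reference for injury is the right hemisphere of injured animals.

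Oligodendrocyte precursors are the dividing glial cells that spread through the brain, and they give rise to the oligodendrocytes that wrap axons in myelin. Platelet-derived growth factor acting on the receptor encoded by Pdgfra drives their division and survival. The transcription factors Olig1, Olig2, Sox10 and Nkx2-2 set the lineage. Gpr17, Bcas1, Enpp6 and Neu4 are used to follow its later steps, from the committed precursor to the newly formed oligodendrocyte.

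Values are log2 probe set summaries, so a difference of 1 is a doubling, and the number of arrays limits their precision. All 10 members lay above the median of the control probe sets, 6.84, on 20 of 20 arrays. All 12 neuronal and all 12 astrocyte markers did so as well. Of 8 genes of other organs 3 did so too, and the mean over the 8 lay between 6.91 and 7.09 on every array. Lying above the control median does not by itself show expression. Array medians lay between 8.20 and 8.23 and correlations between arrays between 0.994 and 0.998. The control probe set median per array ranged from 6.70 to 6.86 on the left and from 6.74 to 7.01 on the right without peptide. With IDR1018 it ranged from 6.68 to 6.86 and from 6.79 to 6.93. Within a treatment, the 2 arrays of 1 replicate number carry a common specimen number in their descriptions, so each pair is 1 animal. The arrays numbered 1 to 10 held left hemispheres and those numbered 11 to 20 right ones, and the order of the arrays and the hemisphere cannot be told apart.

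Over both treatments, 6 of the 10 precursor genes were lower in the injured hemisphere and 0 were higher (limma, adjusted p below 0.05 over 28187 probe sets; 6 members at an unadjusted p below 0.05, the same 6). The 6 were Pdgfra, Cspg4, Olig1, Bcas1, Enpp6 and Neu4. Of all 19937 genes, 19.2% were lower and 17.3% higher in this comparison. The median difference of left minus right was -0.15 over the 10 members and -0.02 over all genes. The other four, Olig2, Sox10, Gpr17 and Nkx2-2, lay between -0.02 and 0.06 and did not pass the test.

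**Figure D1:**
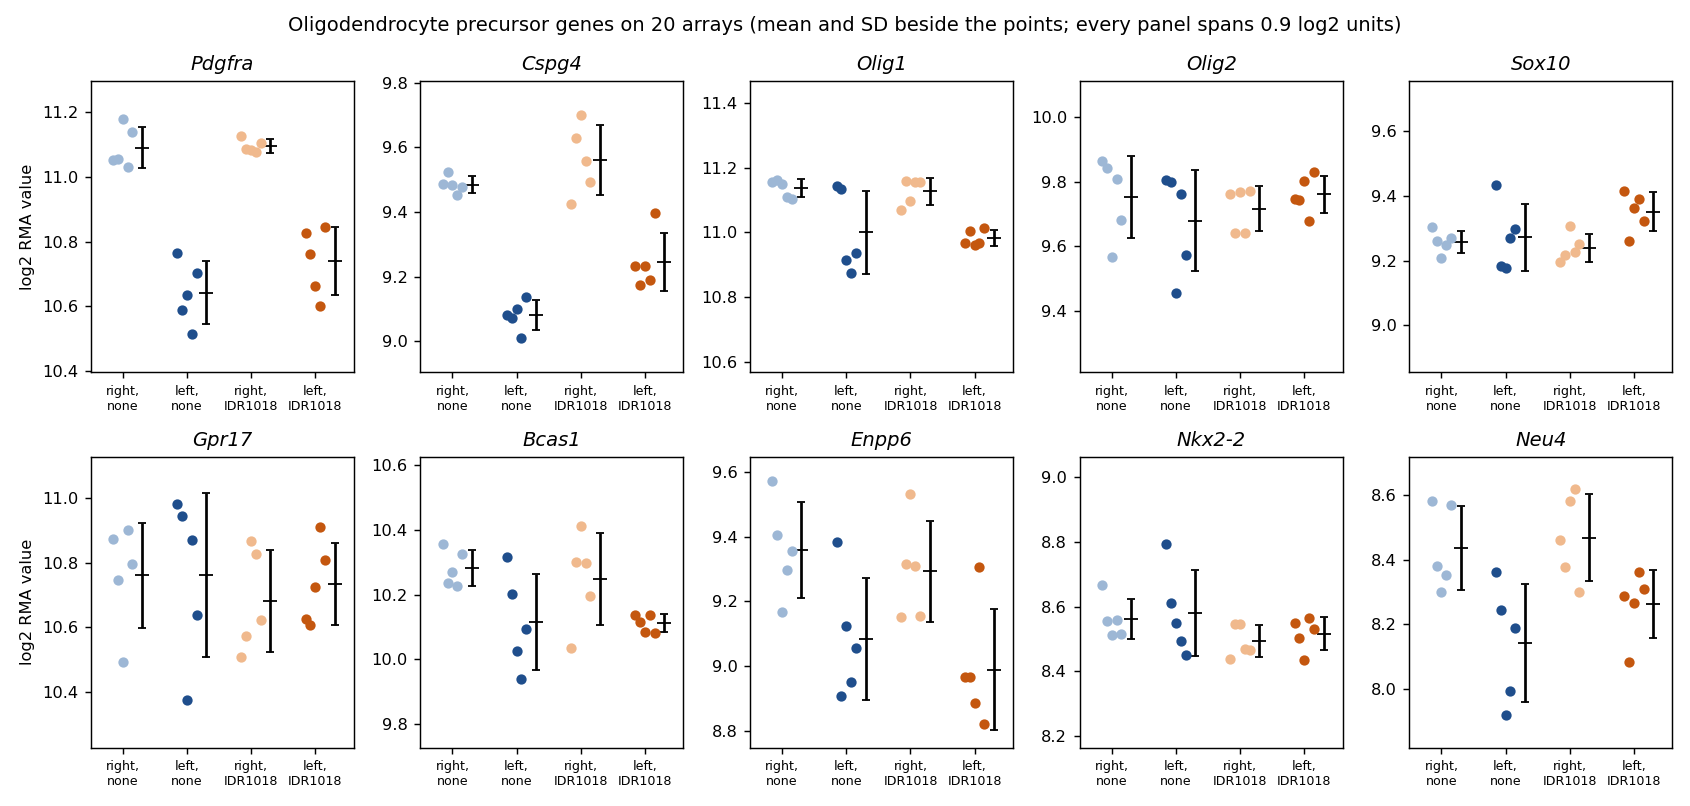
Log2 RMA value (y axis) of each of the 10 precursor genes on each of the 20 arrays, by hemisphere and treatment ("none" is no peptide); points are arrays, and the bar beside them is the mean with 1 SD, n = 5. Every panel spans 0.9 log2 units, so spreads can be compared between genes while levels cannot; Pdgfra and Cspg4 are the panels in which no left array reaches a right array.

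Pdgfra (probe set 10522503) encodes the platelet-derived growth factor receptor alpha, which carries the main mitogenic signal of these cells. Without peptide its log2 values in the left hemispheres of replicates 1 to 5 were 10.76, 10.59, 10.64, 10.52 and 10.70, against 11.05, 11.06, 11.18, 11.03 and 11.14 on the right. With IDR1018 the left values were 10.83, 10.76, 10.66, 10.60 and 10.85, and the right values 11.13, 11.09, 11.08, 11.08 and 11.10. Every left array lay below every right array in both treatments. The left minus right difference was -0.45 ± 0.05 (SE, n = 5 and 5) without peptide, with an adjusted p of 0.00024 by limma, and -0.36 ± 0.05 with IDR1018, with an adjusted p of 0.000566. Expressed as a fold over both treatments, Pdgfra was 1.32-fold higher in the right hemisphere.

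Cspg4 (probe set 10585588) encodes the proteoglycan NG2, the surface antigen by which precursors are commonly stained. Its left values without peptide were 9.08, 9.07, 9.10, 9.01 and 9.14, against 9.49, 9.52, 9.48, 9.45 and 9.48 on the right. With IDR1018 they were 9.23, 9.17, 9.23, 9.19 and 9.40 on the left and 9.42, 9.63, 9.70, 9.56 and 9.49 on the right. The hemispheres again did not overlap in either treatment, although the highest left array and the lowest right array with IDR1018 came close. Left minus right was -0.40 ± 0.03 without peptide (adjusted p = 3.76e-05, limma) and -0.32 ± 0.06 with it (adjusted p = 0.00399). Groups that did not overlap with the left lower were seen for 2 of 10 members without peptide, Pdgfra and Cspg4, and for 3 with IDR1018, where Olig1 joined them. Among all genes the corresponding shares were 9.11% and 7.56%.

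Both genes are also transcribed outside the lineage, Pdgfra in fibroblasts of the meninges and vessels and Cspg4 in pericytes. Of 10 pericyte markers, 3 were lower on the left without peptide, among them Pdgfrb at -0.22 ± 0.04 and Notch3 at -0.23 ± 0.04, and 3 were lower with IDR1018. Their mean per array ranged from 8.72 to 8.89 on the left and from 8.89 to 9.02 on the right without peptide, and from 8.77 to 8.90 and from 8.90 to 9.00 with it. Of 12 fibroblast markers, 4 were lower on the left in each treatment. The share of all genes called lower was 10.1% without peptide and 7.96% with IDR1018. Slc6a13, a transporter of meningeal fibroblasts, differed by -0.80 ± 0.14 and Slc22a6, another such transporter, by -0.59 ± 0.08 without peptide. The fibroblast mean per array ranged from 8.59 to 9.19 on the left and from 9.14 to 9.40 on the right without peptide, and from 8.71 to 9.19 and from 9.06 to 9.38 with it. The collagen genes Col1a1, Col1a2 and Col3a1 of that list did not pass the test, with differences between -0.09 and -0.06 without peptide. Higd1b among the pericyte markers and Lum among the fibroblast markers exceeded the control probe set median on 1 of 20 arrays each, and the other 9 and 11 markers on all 20. The part of these cells in the Pdgfra and Cspg4 differences was not tested. In whole-hemisphere RNA, fewer cells of a type and less RNA per cell cannot be told apart.

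The 4 members with the largest left minus right differences, Pdgfra, Cspg4, Enpp6 and Neu4, are shown with the 250 bases before the transcript start that a promoter table from RefSeq lists for them (build GRCm38.p6), since they were lower together in the injured hemisphere. All are printed 5′ to 3′ on the gene's strand, the plus strand: Pdgfra at chr5:75152001-75152250, Cspg4 at chr9:56864854-56865103, Enpp6 at chr8:46986637-46986886 and Neu4 at chr1:94020243-94020492. For Cspg4 and Neu4 that start is the first base of the annotated gene. For Pdgfra and Enpp6 it is an internal start, so their windows lie inside the annotated gene and are not the sequence before its outermost start. Capitals mark matches on either strand to the E-box CANNTG, the type of site read by Olig proteins, and to ACAAAG or ACAATG, the type read by Sox proteins.
Pdgfra: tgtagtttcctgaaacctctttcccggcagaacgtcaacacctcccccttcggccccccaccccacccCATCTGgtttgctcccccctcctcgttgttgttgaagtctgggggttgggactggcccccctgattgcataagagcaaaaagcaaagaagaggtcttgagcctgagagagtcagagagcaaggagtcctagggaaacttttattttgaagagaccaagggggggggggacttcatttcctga
Cspg4: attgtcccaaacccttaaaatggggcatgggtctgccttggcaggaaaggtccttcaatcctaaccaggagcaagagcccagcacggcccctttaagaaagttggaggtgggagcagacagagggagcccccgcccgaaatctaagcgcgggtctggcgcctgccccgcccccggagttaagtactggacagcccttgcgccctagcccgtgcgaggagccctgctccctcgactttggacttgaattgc
Enpp6: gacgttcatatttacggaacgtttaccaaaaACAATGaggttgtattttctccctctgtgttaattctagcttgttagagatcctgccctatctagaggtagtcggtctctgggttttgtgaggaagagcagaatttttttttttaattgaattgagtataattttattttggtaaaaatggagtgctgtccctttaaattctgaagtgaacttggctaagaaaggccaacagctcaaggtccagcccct
Neu4: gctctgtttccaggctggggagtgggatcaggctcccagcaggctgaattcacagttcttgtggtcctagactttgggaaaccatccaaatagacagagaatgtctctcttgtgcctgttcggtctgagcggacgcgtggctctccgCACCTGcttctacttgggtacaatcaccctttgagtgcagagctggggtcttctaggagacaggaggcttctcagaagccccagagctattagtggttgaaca

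Pdgfra and Neu4 held 1 E-box each and no Sox-type match. Enpp6 held 1 Sox-type match and no E-box, and Cspg4 held neither. The search left out chromosome 18, which holds Gpr17, and matched promoters for 6 of the 10 members. Of those not printed, Olig2 had 1 Sox-type match and Nkx2-2, also at an internal start, had 3 E-boxes. Across 32851 promoter windows of the same length, 66.2% held an E-box and 25.2% a Sox-type match, and no matches overlapped in the 6.

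Among the 4 transcription factors, only Olig1 was lower in the injured hemisphere over both treatments. Olig1 (probe set 10436828), a basic helix-loop-helix factor of oligodendrocyte maturation and repair, read 11.14, 11.13, 10.91, 10.87 and 10.94 on the left without peptide and 11.16, 11.16, 11.15, 11.11 and 11.10 on the right. With IDR1018 it read 10.97, 11.00, 10.96, 10.97 and 11.02 on the left and 11.07, 11.16, 11.10, 11.16 and 11.16 on the right. Without peptide, 2 left arrays lay among the right ones and 3 lay clearly below; with IDR1018 all 5 left arrays lay below all 5 right ones. The difference was -0.14 ± 0.06 without peptide (adjusted p = 0.114, limma) and -0.14 ± 0.03 with it (adjusted p = 0.0124). The first passed when left replicate 1 was left out (-0.17, adjusted p = 0.0447), and the second was lost when both arrays of animal 2 (adjusted p = 0.0533) or of animal 4 (adjusted p = 0.064) were left out. Over both treatments it was -0.14 ± 0.03, with an adjusted p of 0.00177, and the left value was the lower in 10 of 10 animals.

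Olig2 (probe set 10436823), the related factor that founds the lineage, differed more between animals than between hemispheres. It read 9.81, 9.80, 9.46, 9.76 and 9.57 on the left without peptide and 9.87, 9.84, 9.57, 9.81 and 9.68 on the right. With IDR1018 it read 9.75, 9.74, 9.80, 9.68 and 9.83 on the left and 9.76, 9.64, 9.77, 9.64 and 9.77 on the right. The groups overlapped throughout. Within animals, the left hemisphere was the lower in 5 of 5 without peptide, by 0.05 to 0.11, and in 1 of 5 with IDR1018. Left minus right was -0.07 ± 0.08 without peptide (adjusted p = 0.571, limma) and 0.04 ± 0.04 with it (adjusted p = 0.555), and the difference between these differences was 0.12 ± 0.09, with an adjusted p of 1. With the animal as a replicate block the SE were 0.03, 0.04 and 0.04, and none passed (adjusted p = 0.176 without peptide, limma).

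Sox10 (probe set 10430458), the factor that switches on myelin genes, was the member with the highest left minus right difference over both treatments, 0.06 ± 0.03 (adjusted p = 0.122, limma). It read 9.43, 9.18, 9.18, 9.27 and 9.30 on the left without peptide and 9.30, 9.26, 9.21, 9.25 and 9.27 on the right. With IDR1018 it read 9.42, 9.26, 9.36, 9.39 and 9.32 on the left and 9.20, 9.22, 9.31, 9.23 and 9.25 on the right. The groups overlapped in both treatments, and with IDR1018 the left hemisphere was the higher in 5 of 5 animals. Left minus right was 0.02 ± 0.05 without peptide (adjusted p = 0.872, limma) and 0.11 ± 0.04 with it (adjusted p = 0.0761). The latter passed without left replicate 2 (0.13, adjusted p = 0.0443), with dim probe sets left out (adjusted p = 0.0469) and in a fit with the control probe set level as covariate (0.14, adjusted p = 0.0299). Nkx2-2 (probe set 10488366), a homeodomain factor that acts as precursors begin to differentiate, ranged from 8.45 to 8.79 on the left and from 8.51 to 8.67 on the right without peptide, and from 8.43 to 8.56 and from 8.44 to 8.55 with IDR1018. Its groups overlapped almost completely, and left minus right was 0.02 in each treatment, with SE of 0.06 and 0.04 and adjusted p of 0.878 and 0.75 by limma.

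The genes of committed precursors and newly formed oligodendrocytes split into 3 that were lower over both treatments and Gpr17, which was not. Enpp6 (probe set 10571715) encodes a choline-specific phosphodiesterase of newly forming oligodendrocytes. It read 9.38, 8.91, 9.12, 8.95 and 9.06 on the left without peptide and 9.57, 9.41, 9.17, 9.30 and 9.35 on the right. With IDR1018 it read 8.96, 8.97, 8.89, 9.31 and 8.82 on the left and 9.15, 9.32, 9.53, 9.31 and 9.16 on the right. A single left array reached into the right range in each treatment, replicate 1 without peptide and replicate 4 with it, and in 10 of 10 animals the left was the lower. Left minus right was -0.28 ± 0.09 without peptide (adjusted p = 0.0592, limma), and -0.30 ± 0.09 with IDR1018 (adjusted p = 0.0473). With the animal as a replicate block the first passed as well (adjusted p = 0.0254). It also passed without left replicate 1 (adjusted p = 0.0103) or right replicate 3 (adjusted p = 0.0353). The call with IDR1018 was lost in 13 of 23 alternatives, among them leaving out left replicate 1, 2, 3 or 5 or right replicate 2, 3 or 4, with adjusted p up to 0.171. Over both treatments the difference was -0.29 ± 0.07 (adjusted p = 0.00299), and the call was kept in 37 of 37 alternatives.

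Neu4 (probe set 10348910) encodes a sialidase that trims sialic acid from glycans. Its left values without peptide were 8.36, 8.24, 7.92, 7.99 and 8.19, against 8.58, 8.38, 8.30, 8.35 and 8.57 on the right. With IDR1018 they were 8.29, 8.08, 8.26, 8.36 and 8.31 on the left and 8.46, 8.38, 8.58, 8.62 and 8.30 on the right. The left arrays were mostly below the right ones, with 1 animal of 10, replicate 5 with IDR1018, nearly equal (0.01). Left minus right was -0.29 ± 0.09 without peptide (adjusted p = 0.035, limma) and -0.21 ± 0.07 with IDR1018 (adjusted p = 0.0657). The call without peptide was lost in 12 of 23 alternatives, among them leaving out left replicate 3, 4 or 5 or right replicate 1, 2 or 5, with adjusted p up to 0.118. With IDR1018 the difference passed with the replicate block (adjusted p = 0.0442) and without right replicate 5 (-0.25, adjusted p = 0.0326).

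Bcas1 (probe set 10490061), a marker of newly formed and actively myelinating oligodendrocytes, read 10.32, 10.20, 10.02, 9.94 and 10.09 on the left without peptide and 10.36, 10.24, 10.27, 10.23 and 10.32 on the right. With IDR1018 it read 10.14, 10.12, 10.08, 10.14 and 10.08 on the left and 10.04, 10.30, 10.41, 10.30 and 10.19 on the right. Right replicate 1 with IDR1018 was the only right array of that treatment below the left ones, and in 9 of 10 animals the left was the lower. Neither treatment passed by itself: left minus right was -0.17 ± 0.06 without peptide (adjusted p = 0.0958, limma) and -0.14 ± 0.06 with it (adjusted p = 0.154). The first passed without left replicate 1 (-0.22, adjusted p = 0.0206) and the second without right replicate 1 (-0.19, adjusted p = 0.0205). Over both treatments it was -0.15 ± 0.05, with an adjusted p of 0.0137.

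Gpr17 (probe set 10457963), a receptor that marks committed precursors and holds back their maturation, varied most between animals, with a pooled SD within groups of 0.18 against 0.066 to 0.17 for the other members. On the left it read 10.98, 10.94, 10.37, 10.87 and 10.64 without peptide and 10.63, 10.61, 10.73, 10.91 and 10.81 with IDR1018. On the right it read 10.87, 10.75, 10.49, 10.90 and 10.80 without and 10.51, 10.57, 10.87, 10.83 and 10.62 with IDR1018. All 4 groups overlapped, and animal 3 without peptide was the lowest in both of its hemispheres. Over both treatments left minus right was 0.03, with a 95% interval of -0.13 to 0.18 and an adjusted p of 0.816 by limma.

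**Figure D2:**
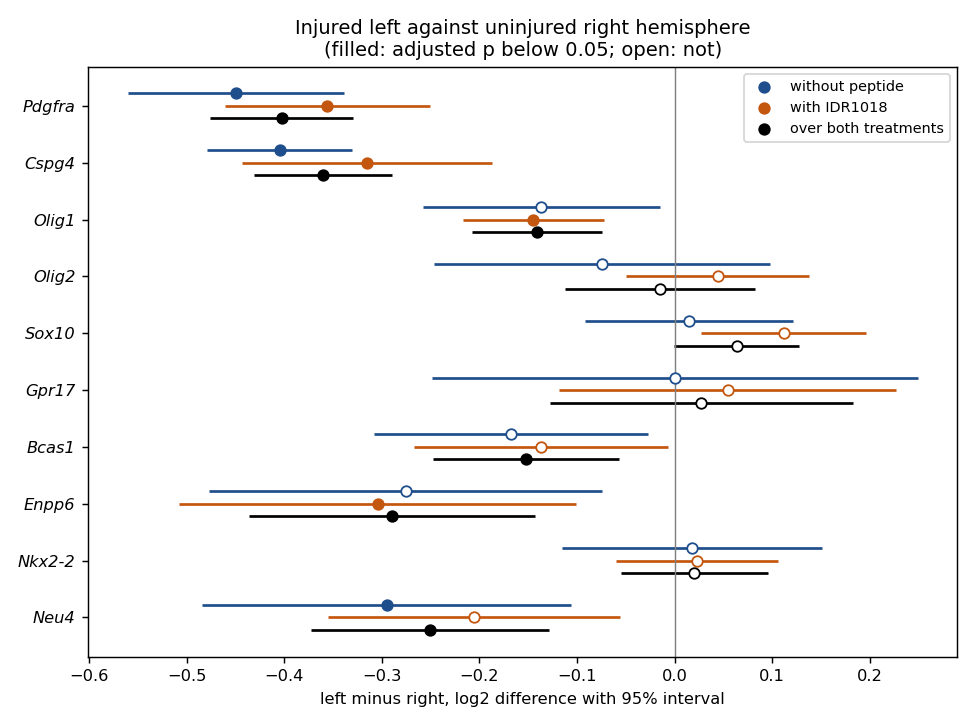
Left minus right difference in log2 units (x axis) of the 10 precursor genes, without peptide, with IDR1018 and over both treatments; points are limma estimates, lines 95% intervals, and filled points have an adjusted p below 0.05. Pdgfra and Cspg4 lie furthest to the left, at -0.45 and -0.40 without peptide, and Olig2, Sox10, Gpr17 and Nkx2-2 lie on both sides of 0.

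Counted by treatment, 3 of 10 members were lower on the left without peptide (Pdgfra, Cspg4 and Neu4) and 4 with IDR1018 (Pdgfra, Cspg4, Olig1 and Enpp6). The share of all genes called lower was 10.1% and 7.96%, and the share called higher, 10.5% and 9.12%, against 0 of 10 members in each treatment (at an unadjusted p below 0.05, 1 member, Sox10, was higher with IDR1018). With the replicate block 4 and 5 members were lower. Leaving out left replicate 1 without peptide, an array on which only 2 of the 10 members lay below their own mean over all arrays, raised the count without peptide to 6. With IDR1018 the count fell to 2 when both arrays of animal 2 were left out. The description of the left array of that animal carries the suffix _2, which could mark a repeat hybridisation, and the array was used as is. The mean over the 10 members per array ranged from 9.53 to 9.81 on the left and 9.73 to 9.89 on the right without peptide, and from 9.62 to 9.71 and 9.72 to 9.89 with IDR1018. The left array that overlapped the right range was replicate 1 without peptide.

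**Figure D3:**
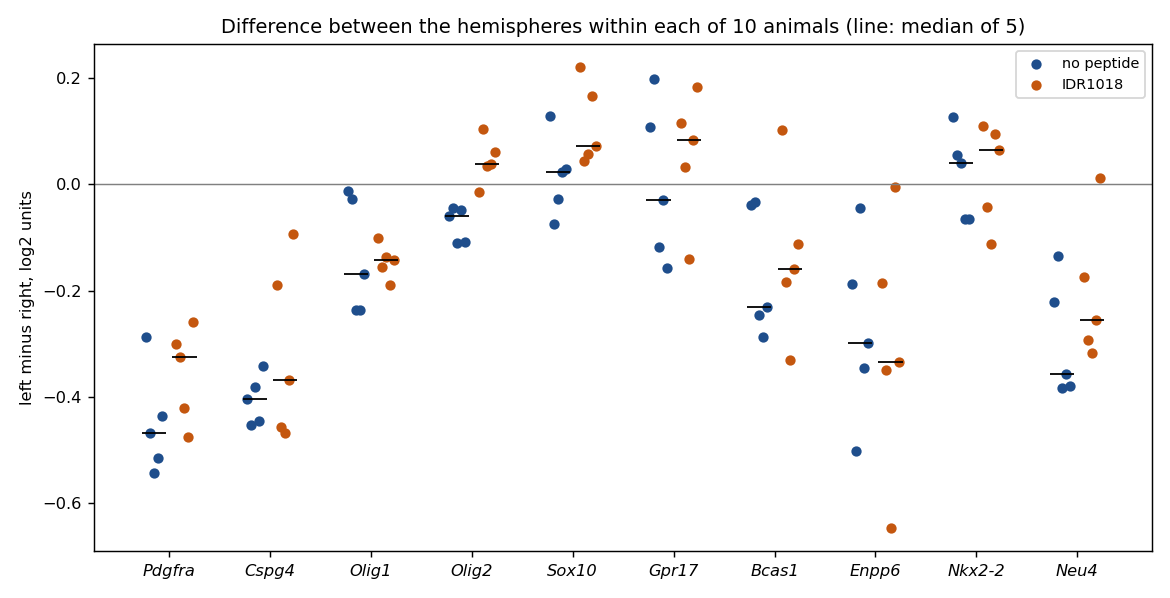
Left minus right difference within each of the 10 animals in log2 units (y axis), by precursor gene and treatment; each point is 1 animal and each line the median of 5. Pdgfra, Cspg4, Olig1 and Enpp6 are below 0 in 10 of 10 animals, and Bcas1 and Neu4 in 9.

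A second list of precursor genes, none of them members, was also lower on the left where its genes passed the test. Like the members, it was chosen with earlier results of these data known. Of 22 genes 20 were measured, and 8 were lower on the left without peptide, 6 with IDR1018 and 9 over both treatments, with 0 higher by limma in each. Of all genes, 10.1%, 7.96% and 19.2% were lower in these comparisons, and 10.5%, 9.12% and 17.3% higher. Their median difference without peptide was -0.07, against -0.01 for all genes. Brinp3, a neural protein gene, differed by -0.66 ± 0.05 (adjusted p = 1.18e-05), Sox5 by -0.22 ± 0.04 (adjusted p = 0.00259) and Sox6, which with Sox5 restrains maturation, by -0.17 ± 0.04 (adjusted p = 0.0154). Vcan and Ptprz1, which encode abundant surface and matrix proteins of precursors, had differences of -0.05 each and did not pass.

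Genes of the later lineage steps were counted in the same way. Of 20 genes of committed precursors and newly formed oligodendrocytes, 2 were higher and 3 lower on the left without peptide, 1 and 1 with IDR1018, and 3 and 3 over both treatments. Of all genes, 10.5% were higher and 10.1% lower without peptide, 9.12% and 7.96% with IDR1018, and 17.3% and 19.2% over both treatments. Cd9, a tetraspanin found in many cell types besides, rose by 0.47 ± 0.05 (adjusted p = 0.000112, limma), and Rras2, a small GTPase, by 0.16 ± 0.04 (adjusted p = 0.0159), while Itpr2, a calcium release channel, was at -0.26 ± 0.06 (adjusted p = 0.016). Of 18 measured genes of myelin and mature oligodendrocytes, 0 passed in either treatment by limma, with 1 and 3 at an unadjusted p below 0.05, and 1, Myrf, the activator of the myelin programme, was lower over both treatments (-0.15 ± 0.04, adjusted p = 0.00844). Mag, a myelin adhesion protein, had a difference of -0.22 ± 0.14 without peptide (adjusted p = 0.301), and Mbp, a main myelin protein, of 0.01 ± 0.06. Opalin of that list exceeded the control probe set median on 0 arrays and 13 of the 18 exceeded it on all 20.

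**Figure D4:**
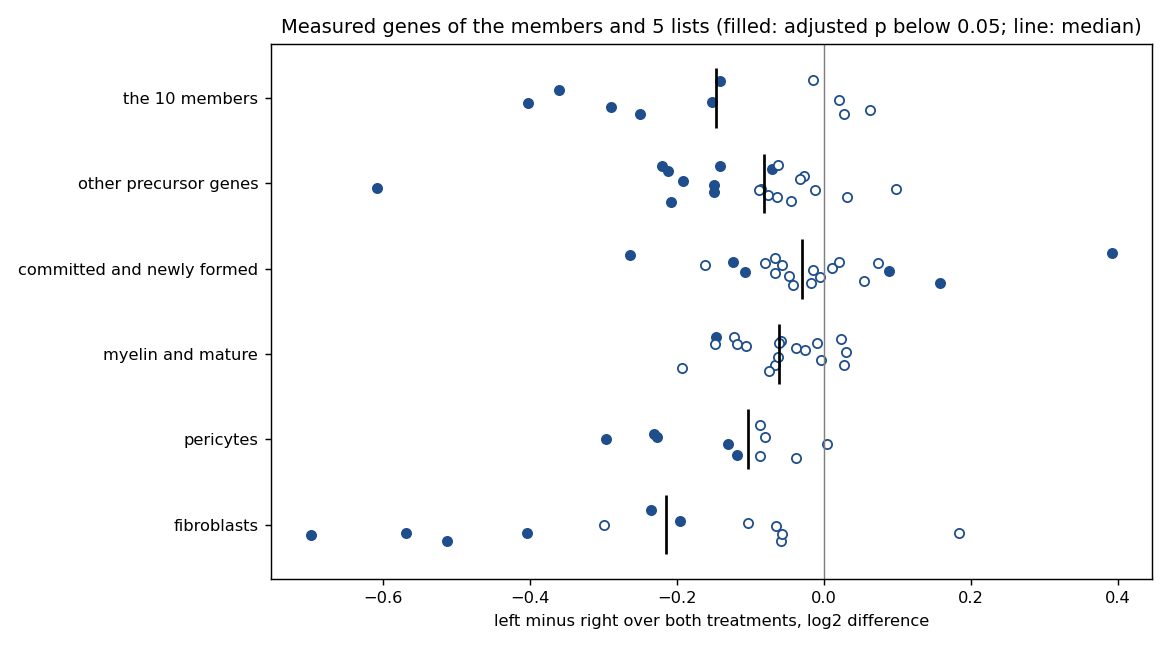
Left minus right difference over both treatments in log2 units (x axis) for the measured genes of the 10 members, 3 other lists of the oligodendrocyte lineage, pericytes and fibroblasts; each point is a gene, filled where the adjusted p is below 0.05, and the vertical bar is the list's median. The members' median is -0.15, that of the second precursor list -0.08, that of the committed and newly formed list -0.03, and that of the myelin list -0.06. The pericyte median is -0.10 and the fibroblast median, the lowest shown, is -0.22.

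Signals that act on precursors changed in both directions. Of 27 measured genes, 5 were higher and 5 lower on the left without peptide, 5 and 4 with IDR1018, and 11 and 6 over both treatments. The shares of all genes were 10.5% higher and 10.1% lower without peptide, 9.12% and 7.96% with IDR1018, and 17.3% and 19.2% over both treatments. Without peptide Fgf2, a growth factor that drives precursor division, rose by 0.55 ± 0.06 (adjusted p = 0.000229, limma), and Pdgfb, a platelet-derived growth factor chain, by 0.37 ± 0.05 (adjusted p = 0.000831). Pdgfa, the main ligand of the Pdgfra receptor, was added for that role after its value was seen: it rose by 0.19 ± 0.04 without peptide (adjusted p = 0.00456) and by 0.17 with IDR1018 (adjusted p = 0.00817), in the hemisphere where its receptor transcript was lower. Fgfr3, a fibroblast growth factor receptor that is also on the astrocyte list, was at -0.52 ± 0.06 (adjusted p = 0.000234, limma). Of 13 measured genes of dividing cells, 2 were higher and 1 lower without peptide: the kinetochore gene Cenpa rose by 0.24 ± 0.05 (adjusted p = 0.00612), the replication gene Mcm2 by 0.17 ± 0.05 (adjusted p = 0.0238), and the mitotic kinase gene Aurkb was at -0.23 ± 0.05 (adjusted p = 0.0106). Mki67 and Top2a, the usual markers of cycling cells, were at -0.02 ± 0.05 and 0.01 ± 0.05 and did not pass.

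Marker lists of other cells are given beside these values, to be read against the 10.1% of all genes that were lower and the 10.5% that were higher without peptide, and 7.96% and 9.12% with IDR1018. Of 8 measured striatal genes, 7 were lower on the left without peptide and 6 with IDR1018. Their mean per array ranged from 10.40 to 10.78 on the left against 10.97 to 11.11 on the right without peptide, and from 10.73 to 10.84 against 10.94 to 11.11 with it. Of 12 neuronal genes 3 and 2 were lower, and of 12 astrocyte genes 2 were higher and 2 lower in each treatment. Microglia and macrophage genes were split, 3 higher and 3 lower of 11 without peptide, and so were endothelial genes, 1 and 1 of 9. Of 8 cerebellar genes 2 were lower, and of 8 choroid plexus and ependymal genes 0 passed without peptide by limma, with 2 at an unadjusted p below 0.05. Over both treatments, where 19.2% of all genes were lower and 17.3% higher, 8 of 8 striatal and 6 of 12 neuronal genes were lower. So were 5 of 10 pericyte and 6 of 12 fibroblast genes, with 0 higher in each of these lists. Of astrocyte genes 4 were higher and 6 lower, of microglia and macrophage genes 3 and 3, and of endothelial genes 3 and 2. Of cerebellar genes 0 were higher and 2 lower, and of choroid plexus and ependymal genes 1 and 0. The part of these cells in the precursor genes' differences was not tested.

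IDR1018 against no peptide gave 0 of 10 calls among the precursor genes in the left hemisphere, 0 in the right and 0 for its effect on the left minus right difference (limma; adjusted p of 0.999, 1 and 1 for every member). At an unadjusted p below 0.05 there were 1, 0 and 0 members in these fits, which had no replicate block. With the animal as a replicate block, the effect on the left minus right difference of Olig2 was 0.12 with an SE of 0.04. The share of all genes called was 0% in the left, 0% in the right and 0% for the difference of differences, and 1 probe set of 28187 passed in the right hemisphere. The 95% intervals of the members reached from -0.32 to 0.30 in the left hemisphere, from -0.27 to 0.19 in the right, and from -0.32 to 0.36 for the difference of differences. These ranges join the outermost limits of different members, and single intervals were narrower, such as -0.08 to 0.06 for Olig1 in the right hemisphere.

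Cspg4 had the largest peptide difference in the injured hemisphere. All 5 left arrays with IDR1018, from 9.17 to 9.40, lay above all 5 without it, from 9.01 to 9.14. The difference was 0.17 ± 0.05 with a 95% interval of 0.06 to 0.27 and an unadjusted p of 0.004, which became 0.999 after adjustment by limma. It was the only member of 10 whose arrays did not overlap with IDR1018 higher, against 0.296% of all genes. Leaving out left replicate 5 with IDR1018, the highest of those arrays, gave 0.13 and an adjusted p of 1. In the right hemisphere Cspg4 differed by 0.08 ± 0.05.

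For the other members the left hemisphere difference ran from -0.10 for Enpp6 to 0.12 for Neu4, with Pdgfra at 0.10 ± 0.06. The left minus right difference was shifted upward with IDR1018 in 8 of 10 members, while 50.7% of all genes were shifted downward. The median shift was 0.07 over the 10 members and -0.001 over all genes. In the second precursor list 9 of 20 genes were shifted upward, with a median of -0.003. In the striatal list 8 of 8 were, with a median of 0.16. Among the members Olig2 had the largest shift at 0.12 ± 0.09, followed by Sox10 at 0.10 ± 0.06, Pdgfra at 0.09 ± 0.07 and Cspg4 at 0.09 ± 0.07. None of these members passed the test, each with an adjusted p of 1 by limma. With the animal as a replicate block the SE of the Olig2 shift was 0.04, and it did not pass either.

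**Figure D5:**
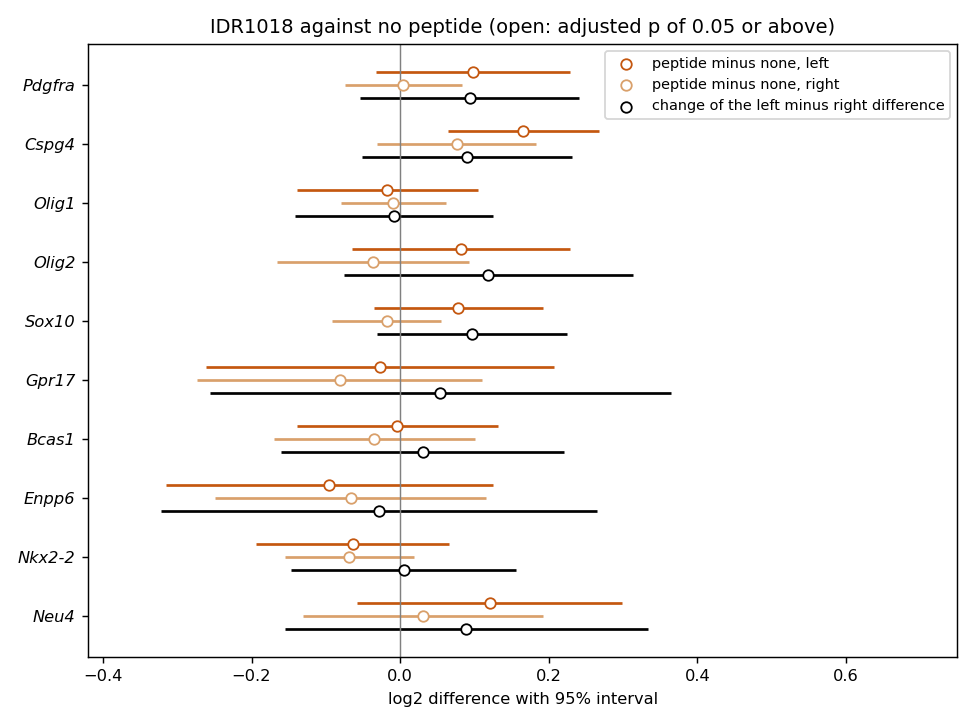
IDR1018 minus no peptide in log2 units (x axis) for the 10 precursor genes in the left hemisphere, in the right hemisphere, and as the change of the left minus right difference; points are limma estimates and lines 95% intervals. All points are open because no adjusted p is below 0.05. In these fits, which had no replicate block, Cspg4 in the left hemisphere, at 0.17, is the only interval wholly on one side of 0.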

How the data were processed

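Total RNA from left and right hemispheres was hybridised to Affymetrix arrays, 20 in all. The authors used RMA in affy 1.38.1, per the submitters' processing notes; RMA corrects background, equalises the arrays' distributions and combines probes. The deposited values are log2; they were used as deposited, and further settings are not given in the sources used here. Of 34760 probe sets, 6573 whose identifiers precede the first annotated one were treated as controls, leaving 28187. Of these, 21640 carried 1 symbol in the platform annotation, 1321 several and 5226 were not listed. limma 3.58.1 in R 4.3.3 compared hemispheres, treatments and their interaction, with Benjamini-Hochberg adjustment over all 28187 and a threshold of 0.05. Main fits had no replicate block. Specimen numbers pair hemispheres of an animal, so a fit with that replicate block stands beside the main one where it changes a call, and for Olig2. Replicate numbers do not pair animals between treatments. From each of 15 marker lists up to 3 genes with the smallest p between hemispheres without peptide were named; Vcan, Ptprz1, Col1a1, Col1a2, Col3a1, Mbp, Opalin, Lum, Higd1b, Mki67, Top2a and Pdgfa were added after their values were seen. Members and lists were chosen with earlier results of these data known. The Sox-type motif was narrowed to ACAAAG or ACAATG after a first search with ACAANG, which had also matched in the Pdgfra window. The steps were tested on simulated data. Animals are separate, but p-values measure only the spread between these arrays.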

Additional observations from a re-analysis of the deposited data

Results flagged for a closer look

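Among 40 sets of 5 arrays (10 genes in 4 groups), 1 held an array far from the rest by Dixon's test at its critical value of 0.71. It was Cspg4 in the left hemisphere with IDR1018, replicate 5, at 9.40 against 9.17 to 9.23 on the other arrays of its group. Chance flags about 1 in 20 such sets. Without that array the left minus right difference of Cspg4 with IDR1018 was -0.35 (adjusted p = 0.00213, limma) in place of -0.32, and over both treatments -0.38.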

How the results depend on the processing

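Of 1560 values of single members recomputed under alternatives, 1511 kept their side of the threshold, 27 lost the threshold, 22 gained it and 0 called values reversed. The 1511 include uncalled values that changed direction. Among these were left minus right of Gpr17 without peptide, in 9 of 23 alternatives, and the IDR1018 effect on that difference for Nkx2-2, in 14 of 37. The 6 lower members over both treatments kept their calls in all 37 alternatives. Probe sets called without peptide were 5088, and 3194 with the control probe set level as a covariate; leaving out arrays or animals gave 2698 to 4909, and 2 to 6 lower members in place of 3. With IDR1018, 4184 became 2323 to 3729, lower members 2 to 5 in place of 4, and higher members 0 to 1; higher members were 1 with dim probe sets left out and 1 with the control probe set level as a covariate, in each case Sox10. For peptide against none, leaving out arrays gave 0 to 1 probe sets on the left and 0 to 1 on the right; the 1 on the right was 0 with control probe sets tested too, with their level as a covariate, with gene means, with all 4 groups fitted and with the replicate block by number. With the replicate block, 4778 probe sets were called without peptide, 3383 with it, 9109 over both treatments, and 0 in the peptide and interaction fits, and it changed no other member's call than those of Enpp6 and Neu4. The causes of these changes were not tested. The members lay above the control median on 20 of 20 arrays; how far signal limits their precision was not tested.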
